A study of Mus musculus with 4 samples.

Results

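Epi-CE-T, a population sorted for a Brachyury (T) reporter, was compared with unsorted Epi-CE, the caudal epiblast-like population that the same protocol makes. The deposited cell table was used to take the barcodes marked TRUE, which gave 2109 cells of Epi-CE-T and 2386 of Epi-CE, together 4495 of the 10579 barcodes of the series. The comparison was made over all of these cells. It was made again over the cells with 3 or more T UMIs (unique molecular identifiers, which count transcripts) in both libraries, called T-selected cells here, of which Epi-CE-T had 1519 and Epi-CE had 1832.

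Epi-CE cells came from epiblast stem cells that had been derived from the mouse embryonic stem cell line E14Tg2a on fibronectin, in N2B27 medium with 12 ng/ml FGF2 and 25 ng/ml activin A. After plating, activin A was withdrawn and FGF2 was raised to 20 ng/ml. On day 3 the WNT pathway agonist CHIR99021 (Chiron) was added at 3 µM, with FGF2 still present. Epi-CE-T cells came from a line named Bra:GFP, were grown the same way, and were sorted at 72 h for GFP. Their label names the strain E14Tg2a too, as every label of the series does. Both therefore received FGF2 and CHIR99021, and no library of either line without CHIR99021 was analysed here. Each population is 1 library, with 8700 cells loaded into the 10x Chromium system. The line and the sort differ together, so their contributions cannot be told apart, and no test across samples is possible. The labels give the 72 h for Epi-CE-T but no harvest hour for Epi-CE. Any difference in time between the libraries therefore cannot be told apart from line and sort either. The construct of the reporter and the gate of the sort are not stated in the labels. The other libraries of the series, ES-NMP (from embryonic stem cells) and Epi-NMP (Epi-CE replated for further culture with FGF2 and CHIR99021), serve only as reference levels.

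The caudal epiblast lies beside and behind the node at the posterior end of the gastrulating embryo. It holds neuromesodermal progenitors, which supply spinal cord and paraxial mesoderm and are usually recognised by T together with Sox2, Nkx1-2 and Cdx genes. T encodes a T-box transcription factor that is active across the primitive streak, in these progenitors, and in the node and the notochord that grows out of it. T alone therefore does not separate caudal progenitors from notochord, which is marked instead by genes such as Shh, Noto, Foxa2 and Chrd.

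Epi-CE-T had 44990488 UMIs in these cells and Epi-CE 58663735, with medians of 19189 and 22613.5 per cell. Mitochondrial genes took 2.67% of the UMIs in Epi-CE-T and 2.26% in Epi-CE, and ribosomal protein genes took 27.2% and 26.9%. The 2 libraries shared 12 barcode sequences. Intervals are 95% and cover counting error only, not the variation between cultures. Hprt, a purine salvage gene that E14Tg2a is known to lack in functional form, did not follow the shared strain label. It stood at 0.801 counts per 1000000 UMIs (CPM) in Epi-CE and 0.943 in Epi-NMP, but at 138 in Epi-CE-T and 204 in ES-NMP. The Y-linked genes Eif2s3y (71.4 CPM in Epi-CE, 68.7 in Epi-CE-T) and Uty (10.5 and 11.4) were alike. With 1 library a side, no result below can be given without the library that stands apart.

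T itself was no higher in the sorted population. Its level was 382 CPM (376 to 388) in Epi-CE-T and 431 CPM (425 to 436) in Epi-CE, 1.13-fold lower (1.11 to 1.15). To compare shares of cells at equal depth, each cell was thinned at random to 8000 UMIs. T was then found in 1590 of 2109 Epi-CE-T cells, 75.4% (73.5 to 77.2), and in 1891 of 2386 Epi-CE cells, 79.3% (77.6 to 80.9). Without thinning the shares were 82.6% and 88.6%. In cells that should lack T, namely 518 ES-NMP cells with 5 or more UMIs of naive pluripotency markers (median 22154 UMIs), the thinned share was 6.18%. Both populations thus lay above that reference, which is of another library, and the order of the shares followed the order of the levels.

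The spread of T over single cells was also close in both populations. The median was 3 thinned UMIs in each, the upper quartile was 6 in each, and the mean was 3.60 in Epi-CE-T and 3.68 in Epi-CE. Cells with none made up 24.6% of Epi-CE-T and 20.7% of Epi-CE. These are called T-0 cells here. They are not free of T, since before thinning 29.5% of them in Epi-CE-T and 45.3% in Epi-CE had a T UMI. In the sorted library the T-0 cells had a median of 25199 UMIs before thinning, against 14946.5 in its cells with over 10 T UMIs. In Epi-CE the same medians were 23683 and 18459.5. In T-selected cells the T level was 565 CPM in Epi-CE-T and 547 in Epi-CE, 1.03-fold higher (1.01 to 1.05). These cells were chosen by T, so that value is a description.

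**Figure D1:**
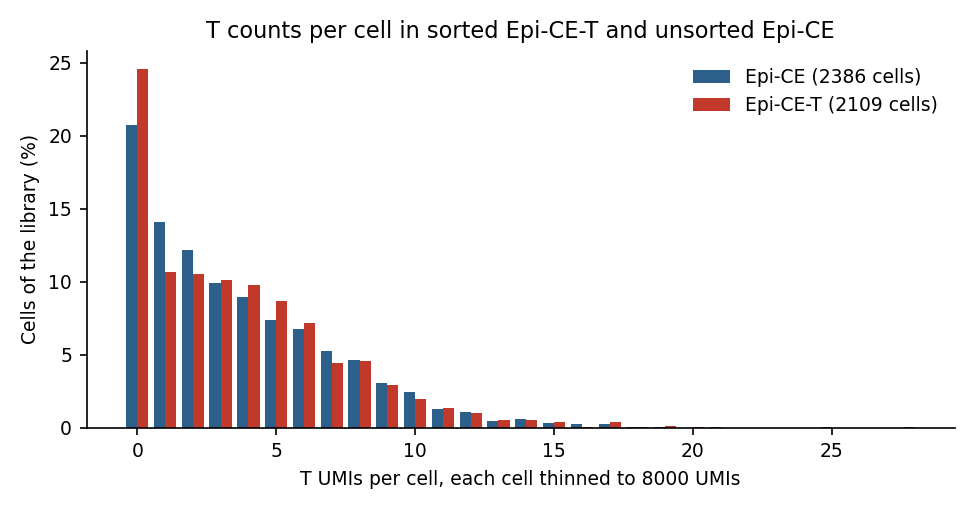
Share of the cells of each library (vertical axis, %) at each number of T UMIs per cell after thinning to 8000 UMIs (horizontal axis), with Epi-CE in blue and Epi-CE-T in red. The distributions lie close to each other; at 0 UMIs Epi-CE-T holds 24.6% of its cells and Epi-CE 20.7%, and at 1 and 2 UMIs the Epi-CE bars are the taller ones.

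Although T differed little, many other genes did not sit at like levels. Of 13119 genes with 50 or more UMIs over both libraries, 1101 were 2-fold or more higher in Epi-CE-T (8.39%) and 922 were 2-fold or more lower (7.03%), while the median log2 ratio of all these genes was 0.04. In T-selected cells, 1272 of 12670 genes were higher (10.0%) and 1052 were lower (8.30%). Among genes measured in both comparisons, 984 were 2-fold higher in both, which is 96.7% of those higher in all cells and 77.4% of those higher in T-selected cells. Another 802 were 2-fold lower in both, 96.3% and 76.2% of the respective lists. No gene was 2-fold apart in opposite directions. The T-selected cells are part of all cells, so this overlap shows only that the differences were found in cells with T as well.

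**Figure D2:**
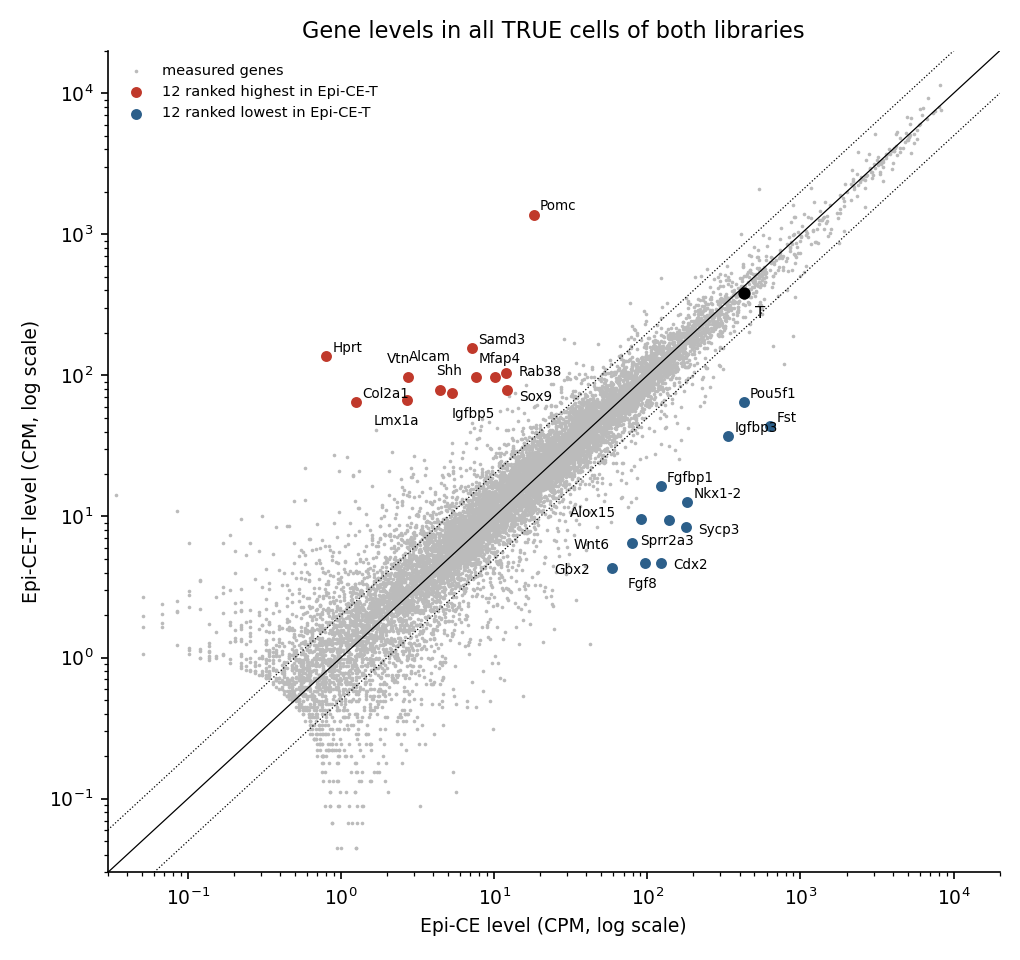
Level of each measured gene in Epi-CE (horizontal axis, CPM, log scale) and in Epi-CE-T (vertical axis, CPM, log scale) over all cells, with a line at equality and dotted lines at 2-fold; genes with no count in 1 library fall outside the axes. T (black) lies near equality at 431 and 382 CPM, whereas Pomc and Hprt stand far above the line and Cdx2, Fgf8 and Sycp3 far below it.

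Caudal epiblast genes were mostly lower in the sorted cells. Among 20 listed caudal epiblast and progenitor genes, 18 could be measured. Of these, 14 were 2-fold lower in Epi-CE-T and 0 were 2-fold higher, where 7.03% of all measured genes were lower. The background for all list counts below is 8.39% higher and 7.03% lower in all cells. In T-selected cells it is 10.0% higher and 8.30% lower. The list's median log2 ratio was -2.43, and in T-selected cells it was -3.45 with 15 of 18 lower, beside a background of 8.30%. The 5 markers used to check the label "caudal epiblast" (Nkx1-2, Cdx2, Wnt3a, Fgf8 and Sp5) summed to 82.9 CPM (80.2 to 85.6) in Epi-CE-T, 629 (623 to 636) in Epi-CE, 587 in ES-NMP and 647 in Epi-NMP. The sorted library, which carries that label, was thus the lowest of all 4 for these markers, although none of them was at 0.

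Nkx1-2, a homeobox gene of the caudal epiblast and its progenitors, was at 12.6 CPM (11.6 to 13.7) in Epi-CE-T and 182 CPM (178 to 185) in Epi-CE, 14.4-fold lower (13.2 to 15.7). In T-selected cells it was at 4.82 and 188 CPM, 39.1-fold lower (33.2 to 46.4). These cells were chosen on T counts before thinning, and the ratio moved over 1.5 times when they were chosen after it. After thinning, 5.22% of Epi-CE-T cells and 62.0% of Epi-CE cells had an Nkx1-2 UMI. Naive-marker cells of ES-NMP had one in 15.3%, but that is another library, in which 51.1% of all cells had one, so it does not give the background of Epi-CE-T. Within Epi-CE-T the share was 15.2% of T-0 cells and 0.963% of cells with 3 or more thinned T UMIs.

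Cdx2, which patterns the posterior axis, was at 4.67 CPM (4.06 to 5.34) in Epi-CE-T and 122 CPM (119 to 125) in Epi-CE, 26.1-fold lower (22.8 to 30.1), and 29.9-fold lower in T-selected cells. Without the 10% of cells with the fewest and the 10% with the most UMIs, Cdx2 was 43.9-fold lower. Its relative Cdx1 was at 1.24 and 42.1 CPM, 33.8-fold lower (26.0 to 44.9). Gbx2, a homeobox gene of the posterior epiblast, was at 4.33 CPM in Epi-CE-T and 58.9 in Epi-CE, 13.6-fold lower (11.8 to 15.8), and 37.8-fold lower in T-selected cells (27.7 to 53.1). Of the Hox genes in paralogue groups 1 to 4, 5 of 9 measured were 2-fold lower, led by Hoxb1 at 1.60 and 24.5 CPM (15.3-fold lower). Hox genes of groups 5 to 9 were low in both populations, and 1 of 6 was 2-fold lower. Exceptions in the caudal list included Fgf15, whose log2 ratio of 0.84 was the highest of the list. Others were Cyp26a1, a retinoic acid-degrading enzyme at 12.3 CPM in Epi-CE-T and 10.2 in Epi-CE, and Greb1 at 16.7 and 12.0 CPM.

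FGF ligands were mostly lower too. Fgf8, an FGF ligand of streak and caudal epiblast, was at 4.69 CPM (4.08 to 5.37) in Epi-CE-T and 95.8 (93.3 to 98.4) in Epi-CE, 20.4-fold lower (17.8 to 23.6). Fgf4 had 0 UMIs in Epi-CE-T against 3.72 CPM in Epi-CE. With 3 counts as the floor of a library, it was at least 55.7-fold lower. In all, 5 of 7 measured FGF ligands were 2-fold lower and 0 were 2-fold higher. Fgf15 and Fgf18 were higher by less than 2-fold, at log2 ratios of 0.84 and 0.71. Of 10 measured feedback genes of the pathway, 1 was lower (Etv5, 2.23-fold) and 1 higher (Dusp4, a MAP kinase phosphatase, 2.60-fold). That is near the shares over all measured genes, 7.03% lower and 8.39% higher.

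Among WNT ligands 4 of 8 measured were 2-fold lower and 0 higher. Wnt3a, which maintains the progenitors in the embryo, was at 0.311 CPM in Epi-CE-T and 9.87 in Epi-CE, 31.7-fold lower (18.8 to 58.4). Wnt6 was at 6.49 and 78.9 CPM, 12.1-fold lower (10.8 to 13.7), while Wnt5a was at 5.49 and 5.59. WNT target and feedback genes went both ways, with 4 of 11 lower and 2 higher. The transcription factor Lef1 was 6.35-fold lower and Sp5 3.63-fold lower. By contrast, Lgr5 had the highest log2 ratio of this list, 2.69. Dkk1, a secreted WNT inhibitor, was at 26.1 CPM in Epi-CE-T and 6.15 in Epi-CE, 4.24-fold higher (3.77 to 4.78).

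Nodal signalling genes were also mostly lower, with 7 of 10 measured 2-fold lower and 1 higher. Fst, which encodes the activin-binding protein follistatin, was at 44.0 CPM in Epi-CE-T and 636 in Epi-CE, 14.5-fold lower (13.8 to 15.1). Nodal was 4.16-fold lower and its co-receptor gene Tdgf1 was 13.4-fold lower. Cer1, a secreted antagonist of Nodal and BMP, was the exception at 2.13 and 0.392 CPM, 5.44-fold higher (3.42 to 8.99).

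Pluripotency genes were mostly lower in the sorted population. Of 15 measured core and primed pluripotency genes, 10 were 2-fold lower and 0 higher in all cells (median log2 ratio -1.40), and 11 were lower and 1 higher in T-selected cells (median -2.26). Pou5f1 (Oct4) was at 64.7 CPM (62.4 to 67.1) in Epi-CE-T and 426 (421 to 431) in Epi-CE, 6.59-fold lower (6.34 to 6.85). In T-selected cells it was at 28.8 and 417 CPM, 14.5-fold lower (13.5 to 15.5). Nanog was at 8.49 and 14.5 CPM, 1.70-fold lower in all cells and 3.95-fold lower in T-selected cells. Otx2, an anterior epiblast gene, went the other way at 6.82 and 3.89 CPM. All 5 measured naive pluripotency genes were 2-fold lower, among them Klf2 (8.02 and 29.8 CPM) and Klf5 (9.42 and 34.0 CPM).

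Among primitive streak and mesoderm genes more were 2-fold lower than higher. Of 14 measured genes of the streak list, which holds T itself, 8 were 2-fold lower, 2 were higher and 4 were within 2-fold. Mixl1, a homeobox gene of streak and nascent mesendoderm, was at 0.533 CPM in Epi-CE-T and 15.5 in Epi-CE, 29.0-fold lower (19.4 to 45.6). Eomes was at 0.556 and 2.30 CPM, 4.14-fold lower. The 2 higher genes were Gsc, a gene of the anterior streak and prechordal plate, at 6.62 and 2.57 CPM (2.57-fold) and Cer1. Mesp1, a gene of nascent mesoderm, was at 1.76 and 1.19 CPM, and Aplnr, the apelin receptor gene, at 46.8 and 52.6 CPM. In paraxial mesoderm 6 of 11 genes were lower, led by Aldh1a2 (14.9-fold) and Tbx6 at 0.911 and 9.61 CPM (10.5-fold). Its 1 higher gene was Pax3, at 3.96 and 0.205 CPM, which is also on the neural list.

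**Figure D3:**
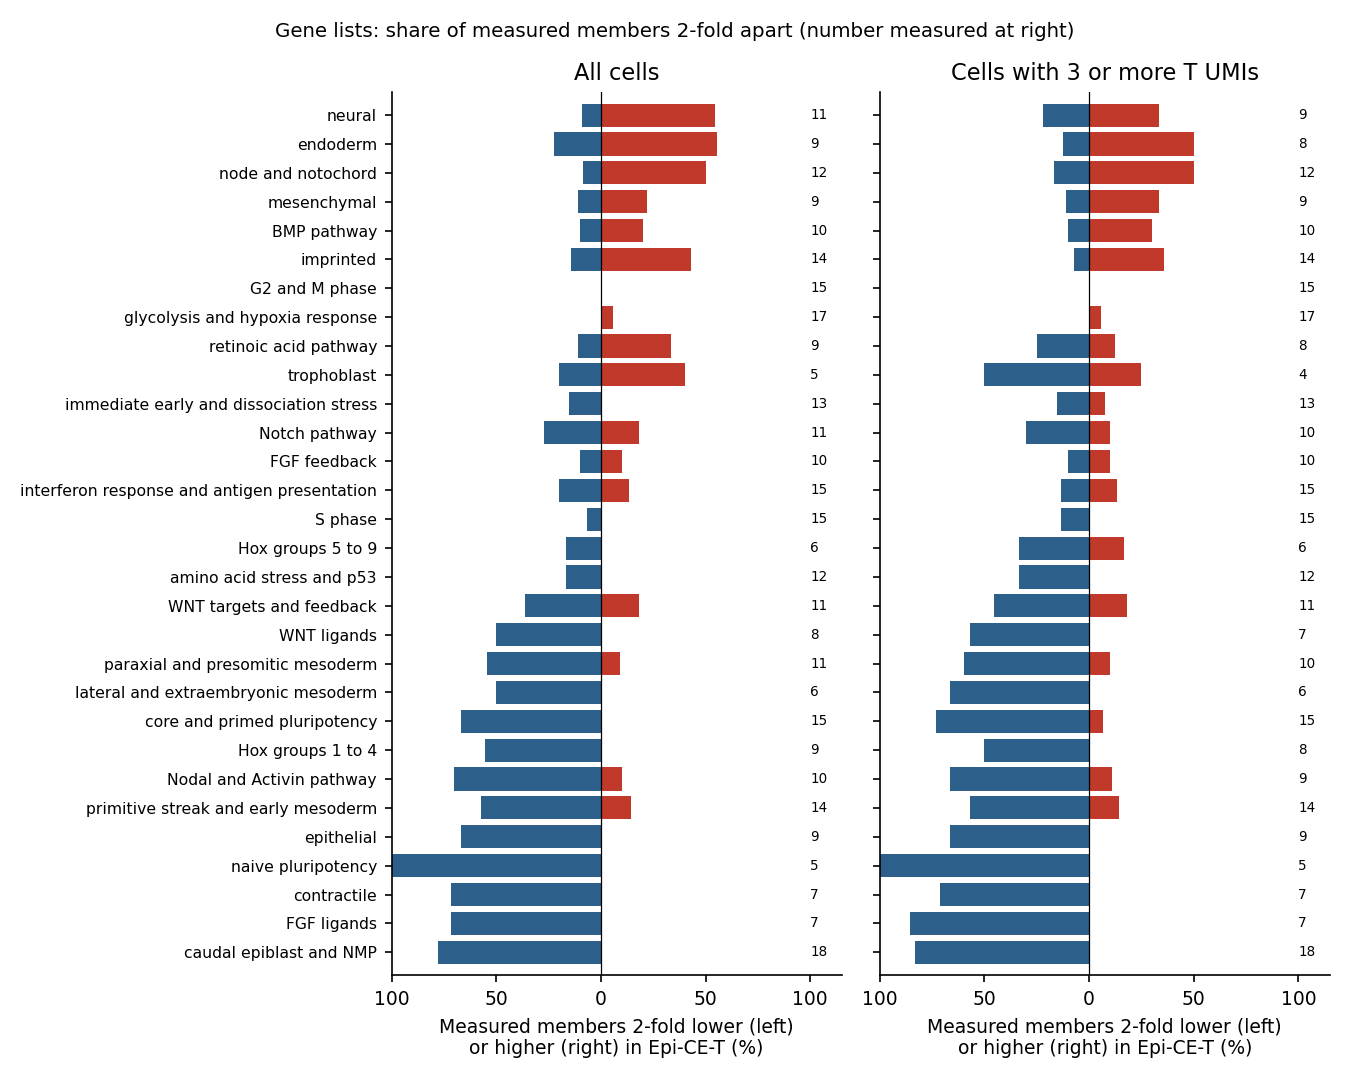
For each gene list with 5 or more measured members in all cells, the share of measured members (horizontal axis, %) that were 2-fold lower in Epi-CE-T (blue, left) or 2-fold higher (red, right), in all cells and in T-selected cells, with the number measured at the right of each row. Caudal, FGF ligand, contractile, naive and primed pluripotency, Nodal and epithelial lists lie mostly left, node and endoderm lists lie mostly right, and cell cycle and glycolysis lists have few members past 2-fold; some lists share members.

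Among genes that reached 50 CPM in either library, those with the highest ratios in the sorted population included several known from notochord and floor plate. Shh, the secreted ligand of both tissues, was at 78.7 CPM (76.2 to 81.4) in Epi-CE-T and 4.43 (3.91 to 5.00) in Epi-CE, 17.8-fold higher (15.7 to 20.2), and 20.3-fold higher in T-selected cells. In thinned cells it was found in 39.4% of Epi-CE-T and 2.39% of Epi-CE. It was found in 0 of 518 naive-marker cells, where 3 counts, the floor used for a count of 0, would be 0.579% of cells with a UMI (Clopper-Pearson upper limit 0.710%). Chrd, the BMP antagonist chordin, was 5.72-fold higher at 71.1 and 12.4 CPM. Sox9, a regulator of notochord and cartilage, was 6.51-fold higher at 78.4 and 12.0 CPM.

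The node and notochord list did not move as a whole. Of 12 measured members 6 were 2-fold higher and 1 was lower, against 8.39% and 7.03% of all measured genes. The list's median log2 ratio was 0.97. Foxa2, a forkhead factor of node, notochord and endoderm, was at 34.3 CPM (32.6 to 36.1) in Epi-CE-T and 35.4 (33.9 to 37.0) in Epi-CE, so its intervals overlap. Noto, the homeobox gene that defines the node, was at 0.244 and 0.750 CPM, 3.07-fold lower (1.56 to 6.59) on 11 and 44 UMIs. Foxj1, the regulator of motile cilia in the node, was at 7.25 and 8.03 CPM. The 5 node or notochord markers together, none at 0 in either library, summed to 192 CPM (188 to 196) in Epi-CE-T and 61.1 (59.1 to 63.1) in Epi-CE. Most of the sum in the sorted library came from Shh and Chrd.

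Endoderm genes were few and split. Of 9 measured genes 5 were 2-fold higher and 2 were lower. Foxa1 was at 25.3 and 3.49 CPM, 7.24-fold higher, and Trh was 6.54-fold higher (5.54 to 7.76). The defining endoderm factor Sox17 was 2.12-fold lower in Epi-CE-T (1.54 to 2.94), with 54 UMIs against 149 in Epi-CE, and Gata4 stood at 0.111 and 1.23 CPM. The 6 endoderm markers summed to 47.0 CPM in Epi-CE-T and 10.9 in Epi-CE, with Ttr at 0 in the latter. Foxa1 alone gave 25.3 CPM of the Epi-CE-T sum, whereas Sox17 and Gata4, also among the 6, were lower than in Epi-CE. Fewer cells of a type and less RNA per cell cannot be told apart in such summed levels.

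The largest ratio in that ranking, which leaves out genes below 50 CPM in both libraries, was that of Hprt. Its log2 ratio was 7.43, against 6.25 for Pomc, and its levels in the 4 libraries are given above. The next largest were in genes less often used as markers here. Pomc, which encodes the precursor of melanocortins and endorphin, was at 1378 CPM (1367 to 1389) in Epi-CE-T and 18.1 (17.0 to 19.2) in Epi-CE, 76.3-fold higher (71.8 to 81.1), against 3.30 in ES-NMP and 2.07 in Epi-NMP. After thinning, 38.7% of sorted cells had a Pomc UMI, 4.48% of Epi-CE cells did, and 3.86% of the naive-marker reference cells did. The naive-marker reference is of another library. Within Epi-CE-T, 50 thinned cells had 3 or more UMIs of the neural markers Sox1, Pax6, Crabp1 and Hes5. Of these cells 20% (10.0 to 33.7) had a Pomc UMI after thinning and 48% before it. Shh was found in 1 of the same 50 after thinning (2%). What part of the 38.7% is background was not tested. Within Epi-CE the Pomc share was 2.42% of T-0 cells (1.26 to 4.20) and 5.53% of cells with 3 or more thinned T UMIs (4.34 to 6.94). Before thinning, 7.68% and 10.7% of the same cells had a Pomc UMI. Without the shallowest 10% and the deepest 10% of cells, Pomc was 152-fold higher. Col2a1, the type II collagen of cartilage and notochord sheath, was at 64.7 CPM (62.4 to 67.1) and 1.24 (0.975 to 1.57), 52.0-fold higher (41.2 to 66.5). It was 71.0-fold higher in T-selected cells.

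Vtn, the matrix protein vitronectin, was at 96.8 CPM in Epi-CE-T and 2.73 in Epi-CE, 35.5-fold higher (30.3 to 41.8). The LIM homeobox gene Lmx1a was at 67.0 and 2.68 CPM, 25.0-fold higher (21.3 to 29.6). The group further held Igfbp5, a binding protein of insulin-like growth factors (14.2-fold, 12.7 to 16.0), and the adhesion molecule gene Alcam (96.7 and 7.57 CPM, 12.8-fold). Mfap4, a microfibril-associated protein (96.9 and 10.1 CPM, 9.60-fold), and Rab38, a small GTPase (103 and 12.0 CPM, 8.59-fold), completed the 12 highest with Hprt, Samd3, Shh and Sox9. Ranking in T-selected cells brought in Cpne8 (53.4 and 1.47 CPM there, 36.2-fold higher). Its log2 ratio was already 4.59 in all cells, where it did not reach the 50 CPM needed for ranking. That ranking also brought in Spp1, the matrix protein osteopontin, whose ratio was 5.49-fold in all cells and 20.0-fold (17.5 to 23.0) in T-selected cells. Lmo4, a LIM-domain cofactor gene, went from 3.28-fold to 4.51-fold higher and Gbe1, a glycogen branching enzyme gene, from 2.80-fold to 4.14-fold. In the other direction F2rl1, a protease-activated receptor gene, went from 4.93-fold to 10.7-fold lower and the epiblast gene Utf1 from 2.97-fold to 6.37-fold lower.

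On the other side, Sycp3, a synaptonemal complex gene otherwise known from meiosis, was at 8.36 CPM (7.53 to 9.25) in Epi-CE-T and 179 (175 to 182) in Epi-CE, 21.4-fold lower (19.3 to 23.8). It was 26.7-fold lower in T-selected cells. The epidermal envelope gene Sprr2a3 was 14.6-fold lower at 9.49 and 138 CPM. Alox15, a lipoxygenase, was 9.38-fold lower at 9.65 and 90.4 CPM, and 17.9-fold lower in T-selected cells. Igfbp3 was 9.08-fold lower at 37.0 and 336 CPM, so that Igfbp3 and Igfbp5, binding proteins of the same family, were on opposite sides. The 12 lowest were completed by Fgfbp1, an FGF carrier protein, at 16.5 and 122 CPM (7.39-fold lower, 6.85 to 7.98).

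Promoter sequence was examined for these 24 ranked genes because they differed together between T-sorted and unsorted cells. RefSeq windows (GRCm38.p6, 250 bases before to 50 after each start) were held for 16 of them. They were searched on both strands for the T-box half-site TCACACCT, whose reverse complement is AGGTGTGA. It occurred in 2 of the 16, in Samd3 (higher in the sorted cells) and Sycp3 (lower). Of all 27025 genes with a window, 1.48% had it, and of all 32851 windows, 1.28%. The 100 bases around each match are given in genome plus orientation, which is the sense strand of both genes, with the match in capitals. In Samd3 (chr10:26229607-26229706) it reads on the sense strand 15 bases before the start, and in Sycp3 (chr10:88459337-88459436) on the opposite strand 247 bases before the start. A match is a description of letters and no evidence of binding.
Samd3: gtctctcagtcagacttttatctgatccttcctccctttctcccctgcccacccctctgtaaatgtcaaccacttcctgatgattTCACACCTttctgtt
Sycp3: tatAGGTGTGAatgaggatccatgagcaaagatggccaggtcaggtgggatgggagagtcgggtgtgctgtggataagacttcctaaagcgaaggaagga

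Samd3, a gene with a sterile alpha motif domain on chromosome 10, was at 155 CPM (152 to 159) in Epi-CE-T and 7.19 (6.52 to 7.91) in Epi-CE, 21.6-fold higher (19.6 to 23.9). It was 26.4-fold higher in T-selected cells. It was found in 55.5% of thinned Epi-CE-T cells and 4.61% of Epi-CE cells, and in 0 of the 518 naive-marker cells.

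Neural genes had different values in all cells and in T-selected cells. In all cells 6 of 11 measured neural genes were 2-fold higher in Epi-CE-T and 1 lower (median log2 ratio 2.26). In T-selected cells 3 of 9 were higher and 2 lower, with a median of 0.17. The 4 neural markers Sox1, Pax6, Crabp1 and Hes5 summed to 49.1 CPM (47.0 to 51.1) in Epi-CE-T and 8.64 in Epi-CE over all cells, but to 4.75 (4.00 to 5.60) and 6.32 (5.61 to 7.09) in T-selected cells. Crabp1, a retinoic acid-binding protein of neural tissue, was 5.66-fold higher (5.10 to 6.29) in all cells at 42.1 and 7.43 CPM. In T-selected cells it was 1.33-fold lower (1.07 to 1.67) at 4.05 and 5.39 CPM. Thus the direction for Crabp1 turned with the choice of cells. After thinning, 99 Epi-CE-T cells (4.69%) and 105 Epi-CE cells (4.40%) had a Crabp1 UMI, so shares at 1 UMI do not show the order of the levels. The naive-marker reference had 5.41%, but it is of ES-NMP, where 16.3% of all cells had one. Cells with 3 or more UMIs of the 4 neural markers were 50 in Epi-CE-T (2.37%) and 9 in Epi-CE (0.377%). Crabp1, itself 1 of these markers, was found in 48 of those 50. Within Epi-CE-T a Crabp1 UMI was found in 12.1% of the T-0 cells and 2.26% of those with a thinned T UMI.

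Sox2, shared by neural and neuromesodermal progenitors, was at 49.0 CPM in Epi-CE-T and 31.4 in Epi-CE, 1.56-fold higher (1.47 to 1.66), and 1.17-fold higher (1.08 to 1.27) in T-selected cells. After thinning, 316 Epi-CE-T cells (15.0%) and 346 Epi-CE cells (14.5%) had both T and Sox2. These shares were close, yet the cells with both T and Nkx1-2 were 31 in Epi-CE-T (1.47%) and 1196 in Epi-CE (50.1%). T with Shh was the reverse, in 802 Epi-CE-T cells (38.0%) and 57 Epi-CE cells (2.39%).

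Levels were then followed along T inside each library. Cells were grouped by thinned T UMIs into 0 (the T-0 cells), 1 to 2, 3 to 5, 6 to 10 and over 10. In Epi-CE-T, Shh was at 10.8, 79.0, 113, 152 and 184 CPM over these groups in order, and Col2a1 at 15.7, 57.8, 106, 126 and 133 CPM. In Epi-CE, Shh had 0 UMIs in the T-0 group and was at 0.599, 2.99, 14.4 and 19.7 CPM in the next ones. Shh thus went up with T in both libraries. Even the Epi-CE cells with over 10 T UMIs (interval 11.5 to 31.5 CPM) lay below the Epi-CE-T cells with only 1 to 2 (70.0 to 88.7 CPM).

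Caudal genes had another course. In Epi-CE, Nkx1-2 was at 163, 205, 198, 172 and 126 CPM along T. In Epi-CE-T it was at 27.2, 8.37, 2.07 and 1.12 CPM and had 0 UMIs in the cells with over 10. Cdx2 in Epi-CE went from 84.1 CPM in T-0 cells to 146, 151, 136 and 131 CPM, and was at most 6.98 CPM in any group of Epi-CE-T. Pou5f1 in Epi-CE was at 443 CPM in T-0 cells and 332 in the cells with the most T, while in Epi-CE-T it went from 113 to 5.32 CPM. At every T level, then, the Epi-CE cells kept the higher Nkx1-2, Cdx2, Fgf8 and Pou5f1.

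**Figure D4:**
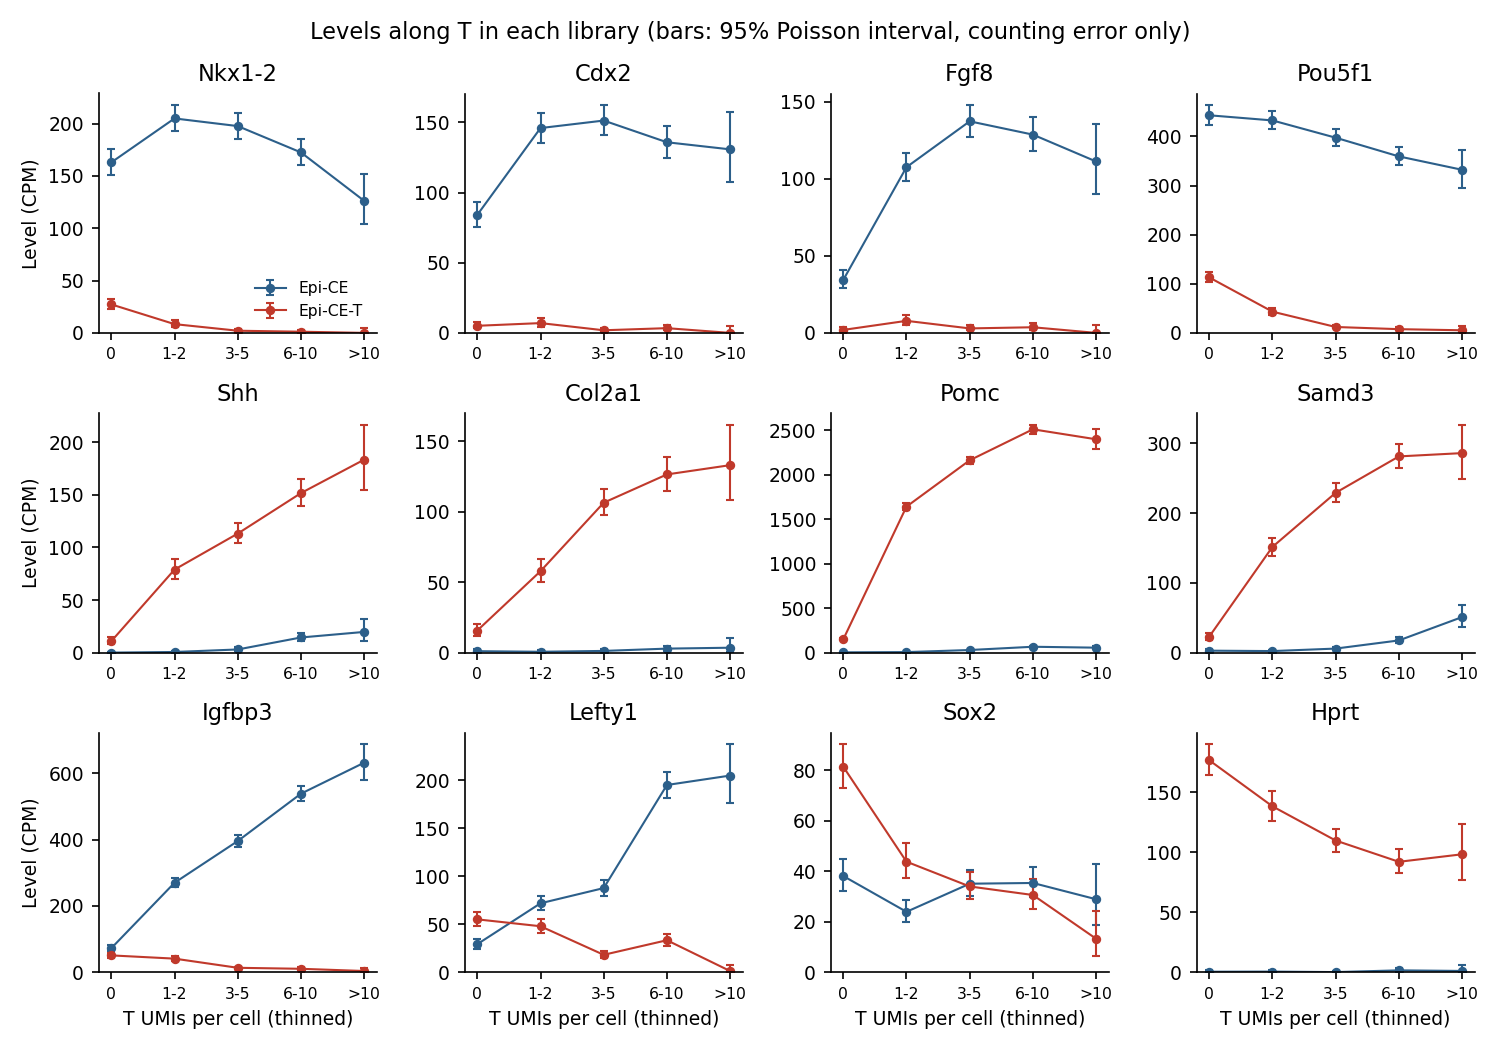
Level (vertical axis, CPM) of 12 genes in cells grouped by thinned T UMIs (horizontal axis) in Epi-CE (blue) and Epi-CE-T (red), with exact Poisson intervals that cover counting error only. On these linear axes Shh, Col2a1, Pomc and Samd3 climb with T by more CPM in Epi-CE-T. Shh, Pomc and Samd3 also climb in Epi-CE from far lower levels, Pomc from 3.03 CPM at 0 T UMIs to 65.8 at 6 to 10. Igfbp3 and Lefty1 climb with T in Epi-CE only, and Nkx1-2, Cdx2, Fgf8 and Pou5f1 stay apart between the libraries in every group.

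Cells with 3 or more thinned T UMIs (written "with T" in what follows) were also set against T-0 cells of the same library. Epi-CE-T had 1142 and 519 such cells and Epi-CE 1265 and 495. In Epi-CE-T 578 of 9872 measured genes (5.85%) were 2-fold higher with T and 294 (2.98%) lower. In Epi-CE 310 of 9801 (3.16%) were higher and 102 (1.04%) lower. The T-0 cells of Epi-CE-T were deeper before thinning than its cells with T (medians 25199 and 16881.5 UMIs), more so than in Epi-CE (23683 and 21782), and what part that has in these counts was not tested. As T-0 cells held T UMIs before thinning in unequal shares, the contrast was repeated against the cells with 0 T UMIs before thinning, 366 in Epi-CE-T and 271 in Epi-CE, an alternative chosen after seeing the data and called the strict reference. It gave 621 genes higher and 282 lower in Epi-CE-T, and 404 and 142 in Epi-CE.

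In Epi-CE-T the genes highest with T, among those reaching 50 CPM, were Pomc (2315 against 149 CPM, 15.6-fold, 14.4 to 16.9), the apelin receptor gene Aplnr (80.7 against 6.02, 13.4-fold) and Shh (134 against 10.8, 12.4-fold). Lmx1a (11.4-fold), Samd3 (11.1-fold), Alcam (10.7-fold), Limch1 (10.3-fold) and the guidance ligand gene Slit2 (8.77-fold) followed. All of these were also higher with T in Epi-CE, where Pomc was at 46.7 against 3.03 CPM (15.4-fold, 8.75 to 30.1) and Slit2 at 38.7 against 5.56 (6.97-fold). Shh and Lmx1a had 0 UMIs in T-0 Epi-CE cells, so there they were at least 12.1-fold and at least 6.52-fold higher with T. These sizes rested on the reference cells. With the strict reference, Pomc was 86.9-fold higher with T in Epi-CE-T and 11.3-fold in Epi-CE, so the likeness of its ratios was lost. In Epi-CE-T, Samd3 was then 67.6-fold, Aplnr 59.1-fold (on 4 reference UMIs), Shh 32.7-fold, Lmx1a 28.8-fold, Limch1 28.3-fold and Alcam 16.1-fold higher. In Epi-CE, Slit2 was 12.0-fold higher, and the lower bounds fell to 6.64-fold for Shh and 3.57-fold for Lmx1a, as fewer reference cells raise the floor.

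The genes lowest with T in Epi-CE-T were Crabp1 (1.97 against 117 CPM, 59.5-fold lower, 37.3 to 101), Fgfbp3 (12.1-fold), Pou5f1 (9.74 against 113 CPM, 11.6-fold) and Car2, a carbonic anhydrase (7.21-fold). Apela, which encodes the ligand of the apelin receptor (6.81-fold), Stmn2 (6.21-fold), Pim2 (4.99-fold) and Akap12 (4.72-fold) completed the 8. In Epi-CE, Pou5f1 was 1.18-fold lower with T, Car2 was 1.15-fold higher, and Stmn2 was at 690 CPM with T against 533 without.

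The genes highest with T in Epi-CE were ranked among those reaching 50 CPM there, which leaves out Pomc and Shh in spite of their larger ratios. Isg15 (55.5 against 6.31 CPM, 8.80-fold, 5.90 to 13.7) and the guanylate-binding genes Gbp2b (73.3 against 11.1 CPM) and Gbp2 (5.61-fold) are known interferon-responsive genes. They were also higher with T in Epi-CE-T, by 4.20-fold, 2.86-fold and 3.05-fold. Fgf8 (131 against 34.3 CPM, 3.82-fold), Sprr2a3 (5.95-fold), Limch1 (4.36-fold) and Igfbp3 and Lefty1 made up the rest. Igfbp3 was at 476 CPM with T and 72.7 in T-0 cells of Epi-CE (6.54-fold higher, 5.81 to 7.39), but at 11.7 and 51.1 in Epi-CE-T (4.36-fold lower, 3.44 to 5.55). Lefty1, a Nodal antagonist, was 4.87-fold higher with T in Epi-CE and 2.42-fold lower in Epi-CE-T. With the strict reference the ratios in Epi-CE were 38.8-fold for Sprr2a3, 20.1-fold for Isg15 (on 6 reference UMIs), 12.4-fold for Igfbp3, 10.6-fold for Gbp2b, 10.5-fold for Gbp2 and Fgf8, and 8.14-fold for Lefty1. Igfbp3 and Lefty1 were still lower with T in Epi-CE-T, by 2.89-fold and 2.07-fold. The genes lowest with T in Epi-CE were Pim2 (4.52-fold), Fn1 (2.72-fold), Sfrp1 (2.64-fold), Apela (2.63-fold), Trib3 (2.61-fold), Gbe1 (2.33-fold), Zfp428 (2.14-fold) and Fgfbp1 (2.08-fold).

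**Figure D5:**
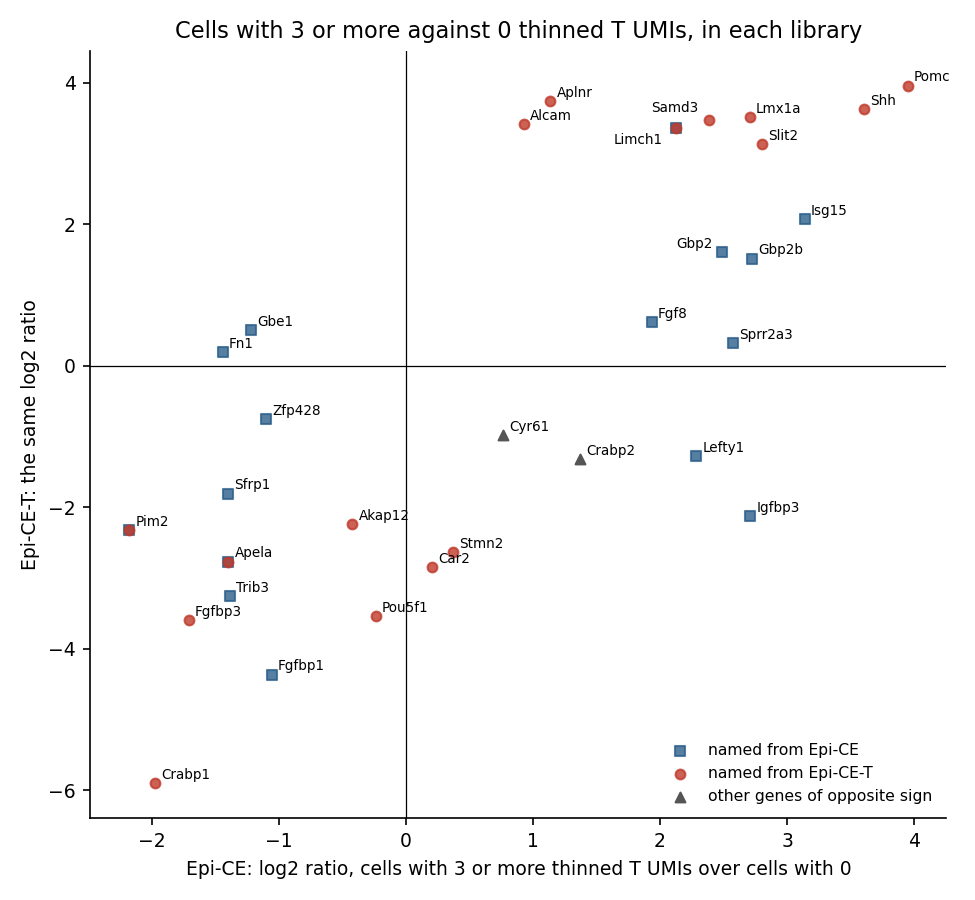
Log2 ratio of cells with 3 or more thinned T UMIs over T-0 cells (no T UMI after thinning), in Epi-CE (horizontal axis) and Epi-CE-T (vertical axis), for the 8 highest and 8 lowest ranked genes of Epi-CE (squares) and of Epi-CE-T (circles) and for other genes on opposite sides (triangles); Shh and Lmx1a had 0 UMIs in T-0 Epi-CE cells and are drawn at their lower bound. Pomc and Shh lie high on both axes, while Igfbp3 and Lefty1 lie right of 0 and below it.

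Cells with any UMI of Foxa2, Shh, Noto or Sox17 were last left out of the T-selected cells, which kept 288 cells of Epi-CE-T (median 17321.5 UMIs) and 1079 of Epi-CE (median 23230). Nkx1-2 was then 11.4-fold lower in Epi-CE-T (9.30 to 14.0) at 16.8 and 190 CPM, and Cdx2 13.7-fold lower (10.4 to 18.5). In the cells that had such a UMI, 1231 and 753, Nkx1-2 was 96.8-fold lower and Cdx2 45.2-fold lower. Pomc was 325-fold higher (279 to 380) without such a UMI and 43.2-fold higher with one, at 2008 and 2004 CPM in Epi-CE-T. Col2a1 was 135-fold and 38.6-fold higher. The level of Pomc in the sorted cells thus differed little between the sets, and the differences in caudal genes were present in both sets. Lefty1 turned, being 1.23-fold higher (1.12 to 1.35) in Epi-CE-T without such a UMI and 6.06-fold lower with one.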

How the data were processed

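UMI counts, whole numbers for each gene in each barcode, were deposited by the authors, and the values show no normalization. Cell Ranger 1.3.1, Seurat 2.0 and build mm10 are named in the submitters' processing notes. Alignment settings, use of strand and the meaning of the TRUE mark are not given in the sources used here. Every TRUE barcode had more than 8000 UMIs. Groups came from the sample titles.

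Counts were summed over cells and divided by the library total, per 1000000 (CPM). A floor of 3 counts is 0.0667 CPM in Epi-CE-T and 0.0511 CPM in Epi-CE. Ratios carry exact conditional binomial, levels exact Poisson and shares exact Clopper-Pearson 95% intervals. UMIs are not independent cultures, and these intervals cover counting error only. With 1 library per group no test was run and no p-value given. The ratio script was tested on simulated data. No doublet caller was run and no doublet removed; leaving out the 5% of cells with the most UMIs was an alternative.

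Genes named were the 12 highest and 12 lowest in all cells, the 10 of each in T-selected cells, the 5 moving most each way between both, the 8 of each within a library, up to 3 list members each way, and 17 fixed genes including T, Sox2 and Shh. Ranking needed 200 UMIs in all, a level of 50 CPM in either library, and left out ribosomal protein, mitochondrial and predicted genes. The cells compared, the 33 gene lists and the markers were chosen with earlier results of these data known. Some genes met by the rule are not described. Python 3.11.15, numpy 2.4.6, scipy 1.17.1 and pandas 2.3.3 were used; edgeR 4.0.16 (TMM) and DESeq2 1.42.0 gave only scaling factors.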

Additional observations from a re-analysis of the deposited data

Results flagged for a closer look

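Among genes ranked in both libraries, 4 had log2 ratios of opposite sign when cells with 3 or more thinned T UMIs were set against cells with no T UMI after thinning (T-0 cells), with intervals past 1.5-fold on each side. The difference between the libraries was not tested, since each is 1 culture. For Igfbp3 the log2 ratio was -2.12 in Epi-CE-T and 2.71 in Epi-CE. For Lefty1 it was -1.28 and 2.28. For Crabp2, a retinoic acid-binding protein gene, it was -1.31 and 1.37. For Cyr61, a matricellular gene, it was -0.98 and 0.77. Against the cells with 0 T UMIs before thinning, these pairs were -1.53 and 3.64 for Igfbp3, -1.05 and 3.03 for Lefty1, -1.41 and 1.71 for Crabp2, and -0.75 and 0.81 for Cyr61, so each kept its signs.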

How the results depend on the processing

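No paired analysis was possible because each group is 1 library without replicate numbers, and no replicate could be left out for the same reason. The T level of Epi-CE-T over Epi-CE was 0.887, and it was 0.859 with TMM factors, 0.853 with DESeq2 size factors, 0.983 with the mean of per-cell CPM, 0.977 from the 10th to 90th UMI percentile and 0.935 without the 5% of cells with the most UMIs. The counts of genes higher and lower in all cells (1101 and 922) were 1899 and 1732 with no minimum, 701 and 555 with a minimum of 200 UMIs, and 2377 and 1723 at 1.5-fold. In T-selected cells (1272 and 1052) they were 2148 and 1885, 804 and 620, and 2644 and 1897. The T shares of Epi-CE-T and Epi-CE were 82.6% and 88.6% unthinned, and 65.0% and 66.7% when thinned to 4000 UMIs. Few values reversed. With no minimum, the median log2 ratio of the blood and endothelium list, with 1 measured gene, became -0.20 in all cells and -0.087 in T-selected cells. Hes5 in T-selected cells was at 0.68 when 1 T UMI sufficed. Without cells with a UMI of Foxa2, Shh, Noto or Sox17, Lefty1 was at 0.30 and Otx2 at -0.47. Of 124 named genes 2-fold apart in all cells, 124 kept their direction under each of the 7 alternatives of scaling, cell weight and cell choice, and at least 122 stayed 2-fold apart. The alternatives of scaling (TMM, DESeq2, and totals without ribosomal protein and mitochondrial genes) shift every log2 ratio by the same small amount. They could therefore not turn the direction of a gene 2-fold apart. The ratios of up to 16 of 216 moved over 1.5 times, most with cells between the 10th and 90th UMI percentile, where Pou5f1 was 10.2-fold and Igfbp3 13.9-fold lower and Crabp1 3.64-fold higher. T-selected cells were less stable. Without cells with a UMI of Foxa2, Shh, Noto or Sox17, 130 of 132 named genes kept their direction, 114 stayed 2-fold apart and 78 of 211 moved over 1.5 times. With 3 or more T UMIs counted after thinning instead of before it, 133 of 135 stayed 2-fold apart. Of 216 named genes 28 then moved over 1.5 times, among them Nkx1-2, Cdx2, Gbx2, Pou5f1 and Igfbp3. T-selected cells had medians of 18040 UMIs in Epi-CE-T and 22699 in Epi-CE before thinning. With 10 or more T UMIs, 129 of 134 stayed 2-fold apart and 32 moved over 1.5 times. With 1 or more, 134 of 135 kept their direction. The cause of the moves was not tested, except that no minimum, a minimum of 200 UMIs and 1.5-fold change what is counted. Depth limits Noto, Wnt3a and Gata4, which rest on 5 to 14 UMIs in Epi-CE-T.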

Other observations

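Epithelial genes were mostly lower in the sorted cells, with 6 of 9 measured 2-fold lower and 0 higher. Cdh1, which encodes E-cadherin, was at 3.00 CPM in Epi-CE-T and 23.8 in Epi-CE, 7.92-fold lower (6.63 to 9.52), and the tight-junction gene Cldn7 was at 2.71 and 23.4 CPM. The keratin gene Krt19 went the other way at 475 and 325 CPM. Of the mesenchymal list, Cdh11 was at 8.36 and 0.375 CPM, 22.3-fold higher (14.5 to 36.0), whereas Vim was at 890 and 986 CPM and Snai1 was 2.84-fold lower. Contractile genes were lower in 5 of 7, led by Cnn1 at 0.911 and 10.5 CPM. No member of the glycolysis list was 2-fold lower and 1 of 17, Pfkp, was 2-fold higher. G2 and M phase genes had 0 of 15 past 2-fold, and S phase genes had 1 of 15 lower (Tyms, 2.11-fold). Of all measured genes, 7.03% were 2-fold lower and 8.39% higher.

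Imprinted genes were split, with 6 of 14 measured 2-fold higher in Epi-CE-T and 2 lower. H19 had 637 UMIs in Epi-CE-T and 2 in Epi-CE, a ratio of 415 with a counting interval of 114 to 3437. Plagl1 had 489 and 5 UMIs, 128-fold higher (54.3 to 394). Igf2, the neighbour of H19, was at 18.6 and 2.45 CPM, 7.56-fold higher (6.33 to 9.09). Meg3 and Peg3 were 2.02-fold and 2.94-fold lower. H19 stood at 0.992 CPM in ES-NMP and 0.0898 in Epi-NMP, so Epi-CE and Epi-NMP, the libraries with low Hprt, were also the ones with the lowest H19. What part the parent line has in these levels was not tested.

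Markers of other cell types were summed over all cells. The 5 contractile markers were at 15.3 CPM in Epi-CE-T and 81.7 in Epi-CE, and the 5 naive pluripotency markers at 12.0 and 30.2, with Zfp42 at 0 in Epi-CE-T. The 5 paraxial mesoderm markers were at 114 and 178 CPM, with Msgn1 at 0 in Epi-CE-T. The 4 lateral mesoderm markers were at 25.0 and 15.6, with Kdr at 0 in Epi-CE, and the 3 trophoblast markers at 13.1 (12.1 to 14.2) in Epi-CE-T, where Elf5 was at 0, with an interval of 5.39 to 6.66 in Epi-CE. The 4 blood and endothelium markers were at 0.711 and 0.460 CPM, with Hbb-y at 0 in both.

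The counts in this paragraph stand beside 8.39% higher and 7.03% lower over all measured genes, and several are near these shares. In the BMP pathway 2 of 10 measured genes were 2-fold higher and 1 lower. The higher ones were Id4, a target gene, at 12.1 CPM in Epi-CE-T and 1.86 in Epi-CE (6.51-fold), and the ligand gene Bmp2 at 35.9 and 7.99 CPM (4.48-fold). In the Notch pathway 3 of 11 were lower and 2 higher. The ligand gene Dll1 was 4.98-fold lower, and 16.5-fold lower in T-selected cells. The Notch target Hes5 was 5.65-fold higher in all cells but had 4 and 29 UMIs in T-selected cells, too few to be counted as measured there (4.77-fold lower, 1.67 to 18.7). In the retinoic acid pathway 3 of 9 were higher and 1 lower, the latter being Aldh1a2, which makes retinoic acid. Of 15 interferon and antigen presentation genes 2 were higher, among them the immunoproteasome gene Psmb8 (94.1 and 31.1 CPM), and 3 were lower, among them Ifitm3 (18.1 and 66.9 CPM). Immediate early genes were 2-fold lower in 2 of 13 and higher in 0, with Atf3 at 4.60 and 30.3 CPM and Fos at 157 and 310. Amino acid stress and p53 genes were lower in 2 of 12 (Trib3 and Chac1) and higher in 0. Hox genes of groups 10 to 13 had 0 of 12 members measured.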
